A study of Mus musculus with 5 samples.

Results

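Mitf and its paralogs Tfeb, Tfec and Tfe3, which together make up the MiT family of transcription factors, were examined in RNA-seq libraries of whole mouse uterus. The 4 genes were taken by family membership from the 28666 genes of the deposited table, and all 4 passed the filter on low counts that left 17013 genes for testing. The family was chosen because of the difference of Mitf between the groups, so the values of Mitf are given as a description, without a test. Only its 3 paralogs and the genes around the family were compared by a test.

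The libraries came from ICR females aged 6 to 8 weeks that were caged with sterilized C57BL/6 males. In the young-SP group (n = 3, replicates 1, 2 and 4) the vasectomized males were 12 to 14 weeks old, and in the aged-SP group (n = 2, replicates 1 and 4) they were 12 to 18 months old. Both groups therefore received seminal plasma (SP) without sperm, no embryo was present, and the age of the male was the only difference stated. The labels place the collection of the uterus 3.5 days after caging, and the methods of the study give 3.0 days post coitum. The question of the comparison was how the preimplantation uterus differs with the age of the male that supplied the seminal plasma. The labels number the libraries of a group without saying that each came from a different female, so p-values measure the spread between these samples.

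Each library held between 15071914 and 16728601 counted reads. On the first principal component of the 500 most variable genes, which carried 66.2% of their variance, the aged-SP libraries scored -43.7 and -25.5 and young-SP replicates 2 and 4 scored 41.9 and 36.6. Young-SP replicate 1 scored -9.43, nearer to the aged-SP libraries than to the rest of its own group. Where a call or a fold change turns on that library, the value without it is also given. The library was picked from these same data, so values without it are a description of how a result depends on it. Leaving it out raised the called genes from 25 to 578 in edgeR (adjusted p under 0.05 and absolute log2 fold change over 1). Leaving out young-SP replicate 2 or 4 instead gave 3 and 2. A further young-SP sample that the study set aside was not analysed here. The tissue held the transcripts of uterine stroma, smooth muscle and epithelium in every library, with Pdgfra, a stromal receptor, between 344 and 617 CPM (counts scaled to the library total).

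MiT factors are basic helix-loop-helix leucine zipper (bHLH-Zip) proteins that bind E-box elements such as CACGTG and CATGTG as homodimers or as heterodimers with each other. In fed cells, Rag GTPases and folliculin bring them to the lysosome, where the kinase complex mTORC1 phosphorylates them and so keeps them in the cytosol. When mTORC1 is off or calcineurin is on they enter the nucleus, and TFEB and TFE3 then raise genes of lysosomes and autophagy. MITF is known above all from pigment cells, mast cells, osteoclasts and the retinal pigment epithelium, and TFEC from macrophages. Transcript levels do not show where these proteins were in the cell.

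Mitf is read from several promoters, and the deposited table sums all of their reads, so the promoter in use in the uterus is not known from these counts. The 250 bases before 3 annotated starts of Mitf are shown because they separate the forms of the gene, with sequences from RefSeq on GRCm38.p6, all on the plus strand. The first window lies at chr6:97806808-97807057, the second at chr6:97929567-97929816 and the third at chr6:97991533-97991782. Capitals mark TGACGTCA, the cAMP response element, which is known from the promoter used in melanocytes.
Mitf window 1: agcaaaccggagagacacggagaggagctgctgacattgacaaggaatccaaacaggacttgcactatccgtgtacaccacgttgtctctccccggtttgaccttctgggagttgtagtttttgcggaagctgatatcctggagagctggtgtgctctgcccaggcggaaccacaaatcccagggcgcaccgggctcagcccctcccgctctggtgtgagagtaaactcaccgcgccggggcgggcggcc
Mitf window 2: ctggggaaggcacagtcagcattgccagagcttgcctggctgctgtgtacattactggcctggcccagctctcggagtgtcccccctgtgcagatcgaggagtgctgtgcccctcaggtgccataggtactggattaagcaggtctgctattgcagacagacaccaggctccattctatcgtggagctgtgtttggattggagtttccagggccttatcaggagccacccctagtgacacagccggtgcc
Mitf window 3: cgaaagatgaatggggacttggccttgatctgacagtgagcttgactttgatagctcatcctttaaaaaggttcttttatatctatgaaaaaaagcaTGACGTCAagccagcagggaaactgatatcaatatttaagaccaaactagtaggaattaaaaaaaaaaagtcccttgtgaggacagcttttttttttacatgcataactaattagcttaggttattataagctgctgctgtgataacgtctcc

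The 3 windows differed in base composition, with a GC content of 59.6% in the first, 58.0% in the second and 36.0% in the third. TGACGTCA was found in the third window only, at 153 bases before the start, and 2.03% of the 27025 genes with a RefSeq window of 300 bases hold it. CACGTG and CATGTG, searched on both strands, were in none of the windows of the 4 members, although 8.09% of all genes hold the former and 15.9% the latter. That these letters are missing from the windows says nothing about binding of a factor elsewhere.

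Mitf, the melanocyte master regulator (ENSMUSG00000035158, chr6:97807052-98021349, plus strand), stood at 74.0 and 83.5 CPM in aged-SP replicates 1 and 4. In young-SP replicates 1, 2 and 4 it stood at 30.4, 22.8 and 28.3 CPM. The groups were far apart and did not overlap, and both aged-SP libraries were above every young-SP library. The mean was 78.7 ± 6.7 CPM (SD, n = 2) against 27.2 ± 3.95 CPM (SD, n = 3). On the log2 scale the fold change was 1.54 (SE 0.15), or 2.9-fold. Between 385 and 1305 reads lay behind each value. Without young-SP replicate 1 the log2 fold change was 1.61.

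The value by which the family was chosen was the adjusted p of Mitf in the edgeR quasi-likelihood fit over all genes, 0.0484. It ranked 26th by p among the 26 genes with an adjusted p under 0.05, 0.153% of those tested, and so lay at the edge of the threshold. With the further limit of an absolute log2 fold change over 1, the fit called 25 genes (0.147%). By the size of its log2 fold change alone, Mitf ranked 356th from the top of the 17013 tested genes.

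Tfeb, the master regulator of lysosomal genes (ENSMUSG00000023990, chr17:47737030-47792419, plus strand), stood at 15.0 and 19.2 CPM in the aged-SP group. Its level in the young-SP group was 14.9, 12.9 and 13.6 CPM. The groups did not overlap, but aged-SP replicate 1 and young-SP replicate 1 lay next to each other. Complete separation with higher aged-SP values was also seen for 19.5% of all tested genes, so it does not set Tfeb apart. The log2 fold change was 0.31 (SE 0.17, 95% interval -0.11 to 0.72), and the adjusted p was 0.379 (edgeR). At 3.0 ± 0.538 against 2.44 ± 0.145 FPKM (reads scaled to gene length and library total), the difference was close to the replicate spread.

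Tfe3, a close paralog of Tfeb that also acts on lysosomal genes (ENSMUSG00000000134, chrX:7762560-7775202, plus strand), was steady across the libraries. It stood at 49.2 and 46.5 CPM in the aged-SP group and at 41.7, 42.1 and 46.5 CPM in the young-SP group. The groups met at young-SP replicate 4, and the log2 fold change was 0.14 (SE 0.10, 95% interval -0.1 to 0.38, adjusted p = 0.472, edgeR).

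Tfec, the member known from macrophages (ENSMUSG00000029553, chr6:16833373-16898441, minus strand), was scarce, with 26 and 21 reads in the aged-SP libraries and 44, 14 and 14 reads in the young-SP libraries. In CPM these were 1.57 and 1.34 against 2.75, 0.828 and 0.935. Young-SP replicate 1 was the highest of the 5 libraries, and the other young-SP libraries were the lowest. The log2 fold change was -0.05 (SE 0.61, 95% interval -1.56 to 1.47, adjusted p = 0.977, edgeR), and without young-SP replicate 1 it was 0.71. The interval spans both directions, and neither a higher nor a lower level of Tfec was shown.

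**Figure D1:**
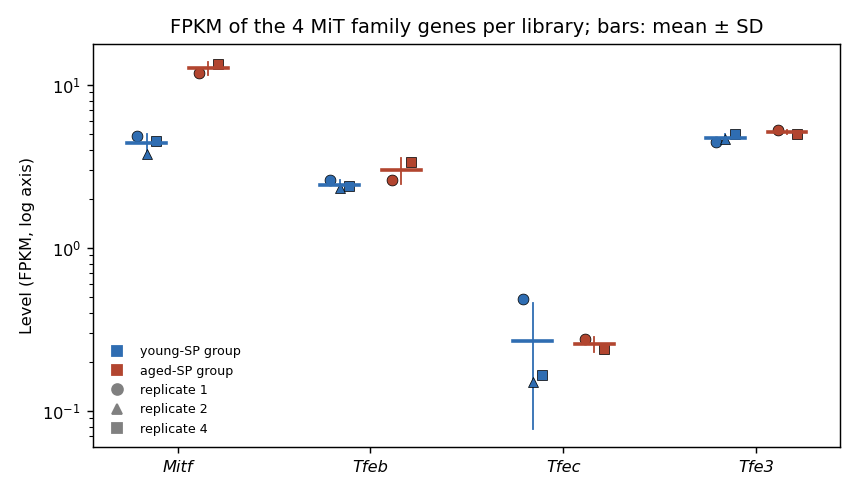
FPKM of Mitf, Tfeb, Tfec and Tfe3 (log axis) in each library, with young-SP in blue and aged-SP in red, the marker shape giving the replicate and the bars the mean ± SD. Mitf lay at 11.8 and 13.4 in the aged-SP group against 3.75 to 4.87 in the young-SP group, whereas the groups lay close together for Tfeb and Tfe3.

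Per length, the order of the family differed between the groups. In the young-SP group, Tfe3 at 4.7 ± 0.27 FPKM and Mitf at 4.39 ± 0.574 FPKM were within their spread of each other, followed by Tfeb and, far lower, by Tfec at 0.268 ± 0.19 FPKM. In the aged-SP group, Mitf at 12.6 ± 1.15 FPKM stood above Tfe3 at 5.13 ± 0.174 FPKM, Tfeb and Tfec at 0.259 ± 0.0271 FPKM. These are levels on the deposited FPKM scale. Over all libraries, the mean FPKM of Mitf was above that of 61.1% of the tested genes, that of Tfe3 above 48.5%, that of Tfeb above 34.3% and that of Tfec above 4.54%.

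Mitf made up 59.2% and 60.9% of the summed FPKM of the family in aged-SP replicates 1 and 4, and 39.2%, 34.5% and 37.6% in young-SP replicates 1, 2 and 4. The share of Tfe3 was 26.3% and 22.7% against 35.9%, 42.7% and 41.3%. Mitf thus held the largest share in both aged-SP libraries and in young-SP replicate 1, and Tfe3 in young-SP replicates 2 and 4. The summed FPKM of the family was 20.0 and 22.1 in the aged-SP group, against 10.9 to 12.4 in the young-SP group. With Mitf left out of the sum, it was 8.15 and 8.62 against 7.12 to 7.56, so that most of the gap between the groups was the part of Mitf.

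**Figure D2:**
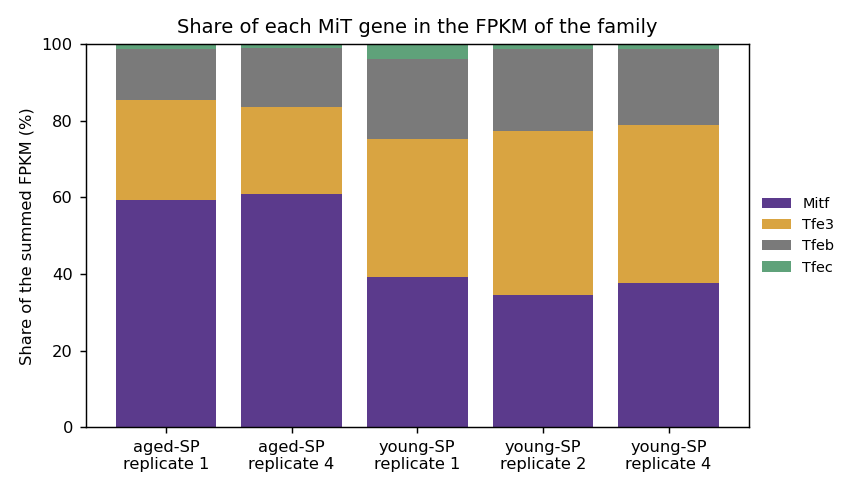
Share of Mitf, Tfe3, Tfeb and Tfec in the summed FPKM of the family (%), 1 bar per library. Mitf took 59.2% and 60.9% of the aged-SP bars, against 34.5% to 39.2% of the young-SP bars.

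The ratio of Mitf to Tfe3 within a library does not depend on the scaling between libraries. For each Tfe3 read there were 1.5 and 1.8 Mitf reads in the aged-SP libraries, and 0.73, 0.541 and 0.608 in the young-SP libraries. By comparison, the number of Tfe3 reads per Tfeb read was 3.28 and 2.42 against 2.8, 3.25 and 3.42, and there the groups overlapped. None of the 50-base stretches of the members' annotated transcripts (0%) occurred, on the transcript strand, in annotated transcripts of other genes. In the GENCODE M21 annotation, 0 genes had exons that overlapped theirs. Whether every read of the members could be told apart was not tested.

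The genes that control MiT factors through Rag GTPases, folliculin and mTORC1 were measured as a list of 22 genes, all tested. The 12 with a higher and 10 with a lower mean estimate had a median log2 fold change of 0.02, against 0.01 over all tested genes. No member passed at an adjusted p under 0.05 in edgeR (0 of 22), while 5 were higher and 2 lower at an unadjusted p under 0.05, beside 9.62% and 9.36% of all tested genes. DESeq2 called 3 higher and 1 lower, beside 3.69% and 3.89% of all genes. limma-voom, which called 0.17% of all genes, called 0 here and in each of the later lists except that of the term melanosome, where it called 1. Without young-SP replicate 1, edgeR called 2.36% of all tested genes higher and 2.45% lower at an adjusted p under 0.05, and in this list it called Fnip2.

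Folliculin and its partners were the genes of this list with the smallest p. The 2 lower genes, named after their values were seen, were Ppp3r1, the regulatory subunit of calcineurin, and Mlst8, a subunit of mTORC1. Ppp3r1 had a log2 fold change of -0.37 (SE 0.09, edgeR adjusted p = 0.125, DESeq2 adjusted p = 0.0232), and Mlst8 one of -0.62 (SE 0.19, edgeR adjusted p = 0.184). For both the groups did not overlap, a separation with lower aged-SP values that 19.3% of all tested genes shared. Fnip1, which binds folliculin, stood at 87.0 and 91.8 CPM in the aged-SP group and at 67.6, 65.1 and 61.0 CPM in the young-SP group (log2 fold change 0.47, SE 0.09, edgeR adjusted p = 0.0945, DESeq2 adjusted p = 0.00453). Fnip2, its paralog, stood at 42.5 and 49.1 against 31.8, 23.9 and 23.8 CPM, a log2 fold change of 0.79 (SE 0.17, edgeR adjusted p = 0.109, DESeq2 adjusted p = 0.00506). For both genes the groups did not overlap, a separation with higher aged-SP values that 19.5% of all tested genes shared. Without young-SP replicate 1 the log2 fold change of Fnip2 was 0.93 (edgeR adjusted p = 0.0295).

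Flcn, which encodes folliculin, stood at 49.9 and 57.1 CPM against 39.3, 39.1 and 41.0 CPM, with a log2 fold change of 0.43 (SE 0.10, edgeR adjusted p = 0.119, DESeq2 adjusted p = 0.0438). Rragd, a Rag GTPase that is itself a known target of MiT factors, stood at 26.5 and 33.8 against 13.1, 22.3 and 17.7 CPM (log2 fold change 0.77, edgeR adjusted p = 0.2). For Mcoln1, the lysosomal calcium channel, the log2 fold change was 0.39 with an adjusted p of 0.218. For Mtor, the kinase itself, the groups lay next to each other, at 72.2 and 71.0 CPM against 72.7, 81.2 and 80.8 CPM (log2 fold change -0.13, adjusted p = 0.493).

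The regulators that act on Mitf in melanocytes were a list of 15 genes, of which 3 (Pax3, Mc1r and Asip) were not analysed here and 10 were tested. edgeR called 0 of them, 0 were higher and 3 lower at an unadjusted p under 0.05, beside 9.62% higher and 9.36% lower among all tested genes, and their median log2 fold change was -0.11. The 3 lower genes, Edn3, Lef1 and Kit, were also the 3 that DESeq2 called.

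Edn3, a ligand that melanoblasts need, stood at 5.56 and 10.6 CPM in the aged-SP group and at 17.1, 22.3 and 21 CPM in the young-SP group (log2 fold change -1.32, SE 0.31, edgeR adjusted p = 0.126, DESeq2 adjusted p = 0.00234). Lef1, a nuclear partner of beta-catenin, stood at 5.38 and 5.05 against 7.51, 17.6 and 20.4 CPM, with young-SP replicate 1 near the aged-SP libraries (log2 fold change -1.54, SE 0.45, edgeR adjusted p = 0.174). Kit, the stem cell factor receptor, stood at 15.8 and 15.2 against 20.4, 29.3 and 29.0 CPM (log2 fold change -0.76, SE 0.20, edgeR adjusted p = 0.145). For all 3 genes the groups did not overlap, the aged-SP values being the lower. That separation was also seen for 19.3% of all tested genes, so it does not set them apart. Without young-SP replicate 1, edgeR called Lef1 (log2 fold change -1.87, adjusted p = 0.0183) and Kit (-0.93, adjusted p = 0.0319) but not Edn3 (-1.44, adjusted p = 0.0793).

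Its ligand Kitl overlapped between the groups, at 72.8 and 87.2 against 58.0, 83.7 and 69.0 CPM (log2 fold change 0.19, adjusted p = 0.607). Sox10, the neural crest factor that drives Mitf in melanocytes, had between 5 and 10 reads in every library and stayed under the filter.

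Melanocyte genes themselves were near 0. Tyr, which encodes the first enzyme of melanin synthesis, had 1 read in young-SP replicate 1 and 0 reads in each of the other libraries, and Mlana and Oca2 had at most 1 read in any library. Pmel, of the melanosome fibrils, stood at 2.54 and 1.02 against 1.19, 0.768 and 1.0 CPM and overlapped (adjusted p = 0.391). Dct, Tyrp1 and Slc45a2 were not analysed here. Of the 13 genes in the list of pigment cell targets 5 were tested, edgeR called 0, and 2 were higher and 0 lower at an unadjusted p under 0.05, beside 9.62% higher and 9.36% lower among all tested genes (median log2 fold change 0.85).

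The higher genes were Gpnmb and Mlph, which are also expressed outside pigment cells. Gpnmb, a glycoprotein of lysosomes and melanosomes, stood at 22.4 and 66.1 CPM in the aged-SP group against 6.57, 11.2 and 14.3 CPM (log2 fold change 2.05, SE 0.52, edgeR adjusted p = 0.142, DESeq2 adjusted p = 0.00186). The aged-SP libraries differed from each other by more than the young-SP libraries did, but both were above all of these. Mlph, a linker of melanosomes to myosin, stood at 38.3 and 31.0 against 22, 13.2 and 16.7 CPM (log2 fold change 1.0, SE 0.24, edgeR adjusted p = 0.128, DESeq2 adjusted p = 0.00856), and without young-SP replicate 1 its log2 fold change was 1.2 (edgeR adjusted p = 0.0403). Rab27a, to which the product of Mlph binds, had a negative log2 fold change of -0.46, at 18.2 and 27.6 against 25.8, 33.2 and 35.4 CPM (adjusted p = 0.358).

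Of 11 osteoclast targets 7 were tested, edgeR called 0, and 3 were higher and 0 lower at an unadjusted p under 0.05, beside 9.62% higher and 9.36% lower among all tested genes (median log2 fold change 0.32). Acp5, the tartrate-resistant acid phosphatase, stood at 46.5 and 42.0 against 23.4, 7.33 and 14.1 CPM (log2 fold change 1.57, SE 0.45, edgeR adjusted p = 0.166, DESeq2 adjusted p = 0.0108), and without young-SP replicate 1 its log2 fold change was 2.04 (edgeR adjusted p = 0.0383). Atp6v0d2, a proton pump subunit, stood at 50.2 and 7.61 against 1.56, 2.78 and 2.67 CPM (log2 fold change 3.63, SE 0.79, edgeR adjusted p = 0.114, DESeq2 adjusted p = 2.18e-05), most of which came from aged-SP replicate 1. Clcn7, a lysosomal chloride transporter, stood at 49.3 and 53.7 against 40.2, 37.7 and 41.1 CPM (log2 fold change 0.38, SE 0.09, adjusted p = 0.134).

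Ctsk, the collagen-degrading protease of osteoclasts, overlapped at 37.7 and 62.4 against 66.7, 58.6 and 71.4 CPM (adjusted p = 0.411). Oscar, Calcr and Ocstamp, which mark osteoclasts, had at most 3 reads in any library. Dcstamp, needed for osteoclast fusion, had 29 and 5 reads in the aged-SP libraries and 1, 1 and 8 in the young-SP libraries, under the filter. Acp5, Atp6v0d2, Clcn7 and Ctsk are also expressed by cells other than osteoclasts.

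Of the 14 mast cell genes, Mcpt1 was not analysed here and 11 were tested. The 3 genes that were lower at an unadjusted p under 0.05 were Hdc, Gata2 and Kit and 0 were higher, beside 9.62% higher and 9.36% lower among all tested genes. edgeR called 0, and without young-SP replicate 1 it called these 3 (Hdc adjusted p = 0.0383, Gata2 adjusted p = 0.0337). Hdc, the enzyme that makes histamine, stood at 165 and 115 against 483, 348 and 485 CPM (log2 fold change -1.65, SE 0.23, edgeR adjusted p = 0.0734, DESeq2 adjusted p = 4.47e-09), and Gata2, a factor also expressed in uterine stroma, at 118 and 141 against 182, 239 and 227 CPM (log2 fold change -0.74, SE 0.16, edgeR adjusted p = 0.11). Neither gene is specific to mast cells.

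The mast cell proteases lay on the other side, without passing the test. Cpa3, the carboxypeptidase of mast cell granules, stood at 18.2 and 52.6 against 5.63, 13.5 and 22 CPM (log2 fold change 1.37, SE 0.66, adjusted p = 0.329), with the groups overlapping and aged-SP replicate 4 the highest. The median log2 fold change of the list was 1.24, of the opposite sign to that of the 3 genes above.

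The lysosome and autophagy genes of the CLEAR network, a set that was defined by the palindrome TCACGTGA in its promoters and by response to TFEB, were a list of 45 genes, all tested. Of these 36 had a positive and 9 a negative log2 fold change, beside 50.9% positive among all tested genes, and their median was 0.32 against 0.01. edgeR called 0 of 45 at an adjusted p under 0.05, with a smallest adjusted p of 0.0734. At an unadjusted p under 0.05, 24 genes (53.3%) were higher and 3 lower, and DESeq2 called 12 higher and 3 lower, beside the shares of all genes given above. The groups did not overlap for 27 genes (60.0%) with higher and 4 with lower aged-SP values, beside 19.5% and 19.3% of all genes. Without young-SP replicate 1, 23 were higher and 4 lower at an unadjusted p under 0.05, beside 11.6% and 11.1%, with a median of 0.37, and edgeR called 4 higher (Neu1, Fnip2, Tpp1 and Ctsa) and 2 lower, Ctsd (adjusted p = 0.0329) among these. The list shares Mcoln1, Rragd, Flcn, Fnip2, Clcn7 and Gpnmb with the lists above.

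Among these genes Sqstm1, the autophagy receptor p62, stood at 484 and 557 CPM in the aged-SP group and at 319, 314 and 353 CPM in the young-SP group (log2 fold change 0.66, SE 0.11, edgeR adjusted p = 0.0767, DESeq2 adjusted p = 7.47e-05). Map1lc3b, which coats autophagosomes, stood at 244 and 276 against 157, 158 and 179 CPM, with the same log2 fold change of 0.66 (SE 0.11, edgeR adjusted p = 0.0767, DESeq2 adjusted p = 1.84e-04). Lamp1, the main lysosomal membrane glycoprotein, stood at 333 and 381 against 301, 258 and 302 CPM (log2 fold change 0.32, SE 0.12, adjusted p = 0.243).

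The lower genes included Ctsd and Sgsh, of which the latter was named after its values were seen. Ctsd, the aspartic protease cathepsin D, stood at 418 and 438 against 889, 860.5 and 1181 CPM (log2 fold change -1.19, SE 0.17, edgeR adjusted p = 0.0734, DESeq2 adjusted p = 1.02e-07). Sgsh, a lysosomal sulfatase that degrades heparan sulfate, stood at 10.2 and 12.2 against 16.9, 18.2 and 20.6 CPM (log2 fold change -0.73, SE 0.17, edgeR adjusted p = 0.119). Cathepsin D thus lay in the opposite direction to Sqstm1 and Map1lc3b, within the same list.

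Genes with the gene ontology term lysosome in the deposited annotation, a wider list chosen after the data were seen, were counted in the same way. CLEAR genes that carry the term were not removed, so the 2 lists are not separate results. Of 278 genes 234 were tested, 44 (18.8%) were higher and 12 lower at an unadjusted p under 0.05, beside 9.62% higher and 9.36% lower among all tested genes, and the median log2 fold change was 0.12. Of 133 genes with the term melanosome, also a list chosen after the data were seen, 106 were tested. Of these, 17 were higher and 13 lower at that p, with a median of 0.08. edgeR called 1, a lower gene, at an adjusted p of 0.0484, beside 0.153% of all tested genes.

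**Figure D3:**
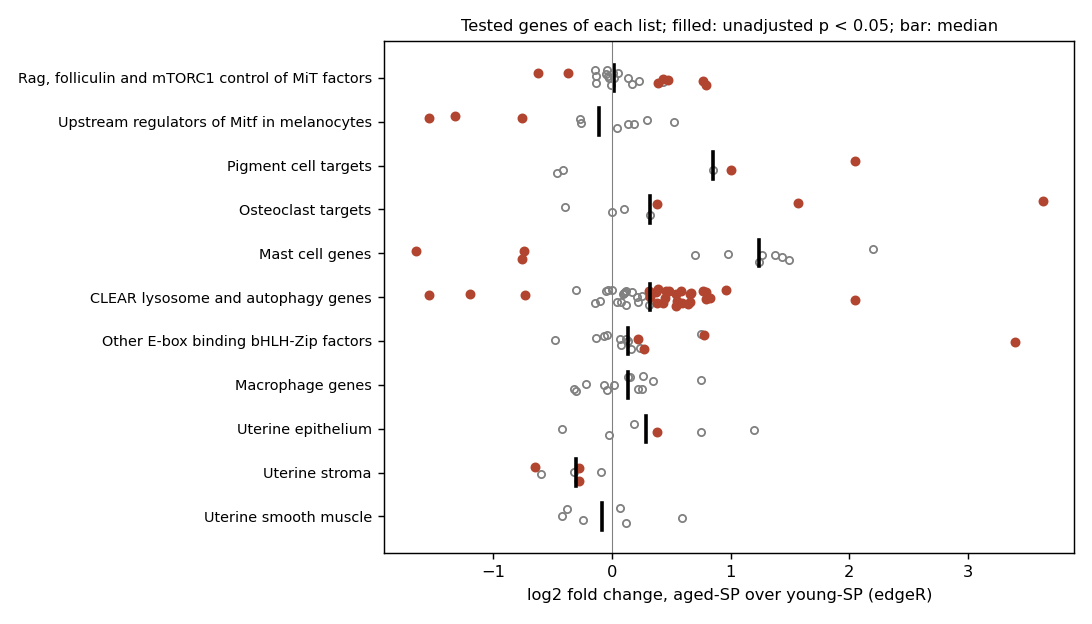
log2 fold change (aged-SP over young-SP, edgeR) of the tested genes of 11 lists, 1 point per gene, filled where the unadjusted p was under 0.05, with a bar at the median. The CLEAR genes had a median of 0.32, the Rag, folliculin and mTORC1 genes 0.02 and the stromal genes -0.3.

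**Figure D4:**
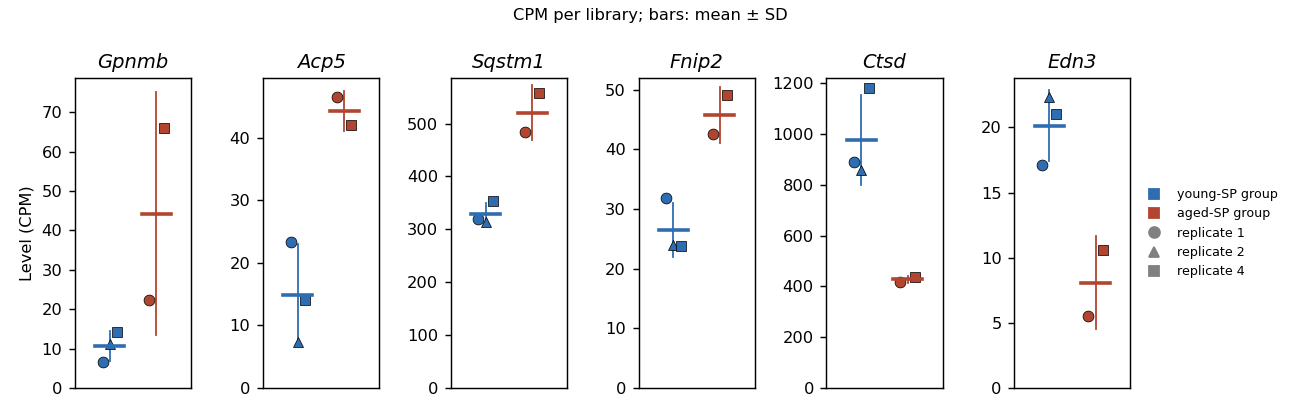
CPM of Gpnmb, Acp5, Sqstm1, Fnip2, Ctsd and Edn3 in each library, with young-SP in blue, aged-SP in red, the marker shape giving the replicate and bars at the mean ± SD. The first 4 genes were higher in both aged-SP libraries, and Ctsd (418 and 438 against 860.5 to 1181) and Edn3 were lower.

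The E-box CACGTG, to which MiT factors bind, was searched on both strands in RefSeq windows that run from 250 bases before to 50 bases after a start. Of the 45 CLEAR genes 35 have such a window, 17 of these (48.6%) hold CACGTG and 10 (28.6%) the longer TCACGTGA, of which CACGTG is the core. The longer palindrome was used to define the network and contains CACGTG, so neither share of the CLEAR genes is a result. Of the 20 Rag, folliculin and mTORC1 genes with a window 7 (35.0%) hold CACGTG, among them Mcoln1, which is also on the CLEAR list. The share was 41.7% (5 of 12) for the other bHLH-Zip factors listed below. It was 33.3% both for pigment cell targets (3 of 9) and for epithelial genes (1 of 3). Osteoclast targets had 14.3% (1 of 7), and 1 of 10 upstream regulators with a window held the motif. Mast cell, macrophage, stromal and smooth muscle genes with a window had 0 matches. A share near 35.0% was thus not particular to the Rag list. Over all genes, 8.09% hold CACGTG and 1.12% TCACGTGA. Of the 10 genes named by rule that hold CACGTG, Lef1, Rab27a, Max and Epcam are not shown. Lamp1 holds 4 sites, and Mcoln1, Clcn7 and Ctsd hold 2 each. For 6 genes that are described above, 1 site each is shown with CACGTG in capitals, on the strand of its gene.
Fnip1: gtttgctgcCACGTGatacggctc
Mcoln1: cgccccgctCACGTGaccgcggcg
Lamp1: gccgactggCACGTGaccacatca
Clcn7: gtcgtcagtCACGTGggcaccgat
Ctsd: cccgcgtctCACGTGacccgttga
Mlph: ggagtagccCACGTGatctgagcc

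Those 24-base sites lie, on GRCm38.p6, at chr11:54438095-54438118 (plus strand, Fnip1), chr8:3500465-3500488 (plus strand, Mcoln1), chr8:13159124-13159147 (plus strand, Lamp1), chr17:25133367-25133390 (plus strand, Clcn7), chr7:142387911-142387934 (minus strand, Ctsd) and chr1:90915043-90915066 (plus strand, Mlph). Their motifs begin between 15 and 98 bases before the start. Both directions are represented, since Ctsd holds the motif and was lower while Fnip1 and Mlph hold it and were higher. Within the CLEAR list, a split chosen after the data were seen, the 17 genes with CACGTG had a median log2 fold change of 0.32 with 9 higher and 2 lower at an unadjusted p under 0.05. The 18 genes with a window but without the motif had a median of 0.55 with 12 higher and 0 lower. Among all tested genes 9.62% were higher and 9.36% lower at that p. The CLEAR genes without a window are in neither part of the split. A match is a description of the sequence, and binding was not measured.

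Other bHLH-Zip factors that bind E-boxes were a list of 15 genes, of which edgeR called 0, and 4 were higher and 0 lower at an unadjusted p under 0.05, beside 9.62% higher and 9.36% lower among all tested genes (median log2 fold change 0.14). Mycn, a MYC family factor, stood at 53.8 and 42.7 against 8.57, 3.43 and 1.74 CPM (log2 fold change 3.39, SE 0.61, edgeR adjusted p = 0.0867, DESeq2 adjusted p = 4.38e-07), a larger difference than that of Mitf in this estimate but with a wider spread. Mxi1, which opposes MYC, stood at 62.6 and 67.2 against 32.1, 39.0 and 42.1 CPM (log2 fold change 0.78, SE 0.14, edgeR adjusted p = 0.0829). Without young-SP replicate 1, edgeR called Mycn (log2 fold change 4.2, adjusted p = 0.0134) and Mxi1 (0.67, adjusted p = 0.0373). For Max, the partner of both, the log2 fold change was 0.27 with an adjusted p of 0.225.

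Since whole uterus was sequenced, fewer cells of a type and less RNA per cell cannot be told apart, and markers of the cell types were set beside Mitf. The summed level of the 6 epithelial genes was 909 and 885 CPM in the aged-SP libraries and 1041, 516 and 641 CPM in young-SP replicates 1, 2 and 4. Young-SP replicate 1 had the highest sum, and the part of the epithelial level in the difference of Mitf was not tested. edgeR called 0 of these 6 genes, and 1 (Krt18, a keratin) was higher at an unadjusted p under 0.05, beside 9.62% of all tested genes. The median log2 fold change was 0.29, against 0.01 over all tested genes. Epcam, an epithelial adhesion molecule, stood at 262 and 235 against 281, 76.6 and 87.0 CPM (log2 fold change 0.75, adjusted p = 0.529), and without young-SP replicate 1 its log2 fold change was 1.59 (adjusted p = 0.0134).

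The 6 stromal genes summed to 1733 and 2038 CPM against 2121, 2839 and 2720.1 CPM, lower in both aged-SP libraries. edgeR called 0, all 6 log2 fold changes were negative with a median of -0.3, and 3 (Pdgfra, Hoxa11 and Hand2) were lower at an unadjusted p under 0.05, beside 9.36% lower at that p and 50.9% with a positive log2 fold change among all tested genes. Pdgfra had a log2 fold change of -0.65 (SE 0.15, adjusted p = 0.12), and -0.78 (adjusted p = 0.0309) without young-SP replicate 1. The part of the stromal level in the difference of Mitf was not tested.

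The 6 smooth muscle genes summed to 8502 and 10826 against 9304, 8954 and 13535 CPM, and the groups overlapped. Of these genes 0 had an unadjusted p under 0.05, beside 19.0% of all tested genes, and the median log2 fold change was -0.08. Acta2, an actin, was lower without overlap, as were 19.3% of all tested genes, at 2475 and 2940.5 against 3025, 3539 and 4268 CPM. Its log2 fold change was -0.42 (edgeR adjusted p = 0.276). Tagln (log2 fold change 0.59) and Actg2 (-0.38) overlapped between the groups. The 13 macrophage genes summed to 1400.4 and 2326 against 2158, 1093 and 1522 CPM, also overlapping. Here too 0 had an unadjusted p under 0.05, beside the same 19.0%, and the median was 0.14. Csf1r, the receptor on which macrophages depend, stood at 99.7 and 160.2 against 139, 77.3 and 119 CPM (adjusted p = 0.737). Mertk was higher without overlap, as were 19.5% of all tested genes, at 31.6 and 37.6 against 29.7, 29.5 and 28.0 CPM. Its log2 fold change was 0.25 (edgeR adjusted p = 0.323). Cd68 (log2 fold change 0.75) and Mrc1 (-0.32) overlapped between the groups. None of the 6 epithelial, 6 stromal, 6 muscle and 13 macrophage genes was at 0 in every library.

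**Figure D5:**
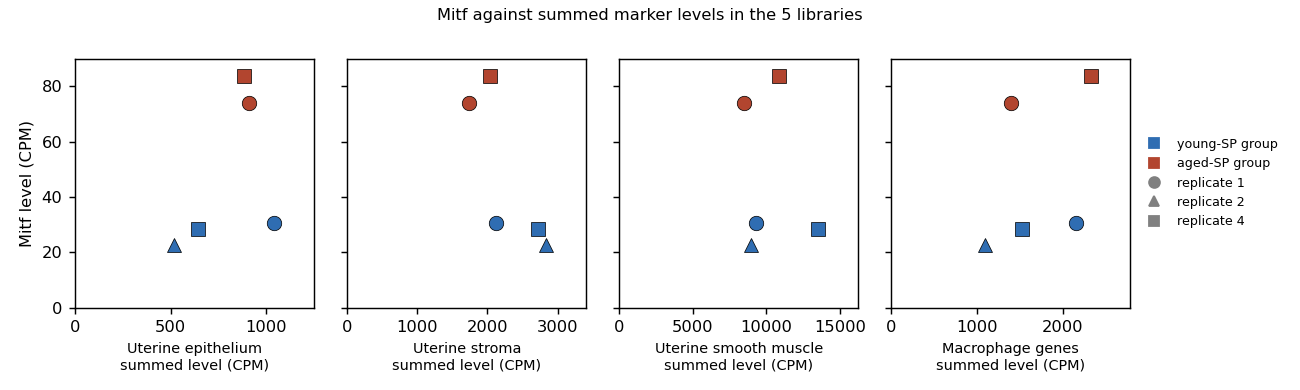
Mitf level (CPM) against the summed CPM of epithelial, stromal, smooth muscle and macrophage genes in the 5 libraries, with young-SP in blue, aged-SP in red and the marker shape giving the replicate. The epithelial sum was highest in young-SP replicate 1 (1041) and the stromal sum was lowest in the aged-SP libraries (1733 and 2038).

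The genes whose profile over the 5 libraries was most like that of Mitf were found by the root mean square difference of centred log2 CPM among 15570 genes with a mean of at least 1 CPM. These were N4bp2l1 (0.0848), Tuft1 (0.103), Rasal1 (0.105), Nmur2 (0.139) and 1500015A07Rik (0.16), where the profile of Mitf itself had a root mean square of 0.768 around its mean. In all, 12 genes lay within 0.2 of Mitf. For Tfeb the nearest were Spns1, Trim26 and Cyb561a3 (0.0283 to 0.031), for Tfec B3gnt3, Lilra5 and Gbp4 (0.0433 to 0.0965), and for Tfe3 Mon1b, Dnajc16 and Ppm1a (0.0124 to 0.0149). The flat profiles of Tfeb and Tfe3 had 3357 and 6600 genes within 0.2, so likeness to them singles out little.

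Genes beside Mitf on chromosome 6 were examined in the same fit. Of 14 listed genes within 1 Mb of Mitf 9 were tested, 4 of them had a higher mean estimate in the aged-SP group, edgeR called 0 at an adjusted p under 0.05 (smallest 0.143), 3 had an unadjusted p under 0.05 (19.0% of all tested genes), and DESeq2 called 1 (7.58% of all genes). The latter was Uba3, an enzyme subunit of the NEDD8 pathway, named after its values were seen, at 81.1 and 81.7 against 99.7, 114 and 103 CPM. Frmd4b, which lies before Mitf, stood at 107 and 85.1 against 79.6, 89.6 and 95.5 CPM, and Foxp1, a forkhead factor that lies after it, at 84.3 and 75.8 against 60.7, 76.3 and 68.5 CPM. Both overlapped between the groups.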

How the data were processed

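The 5 RNA-seq libraries were made from mouse uterus with the NEBNext Ultra RNA kit, and the study's methods do not say whether strand was kept. The deposited gene counts were made by the authors from reads aligned to the mouse genome, and the submitters' processing notes name Bowtie2 2.2.3, HISAT2 2.1.0 and HTSeq 0.6.0. The build and the strand setting of the counting are not given in the sources used here, but the positions of 27022 of the 28666 genes match GENCODE M21, which is on GRCm38. The FPKM values deposited by the authors equal the count over gene length and total count within 0.1% for 100.0% of values above 0. The mean signal, log2 fold changes, p-values and adjusted p-values of the authors' DESeq2 comparison, also in the deposited table, were not used.

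Counts were fitted with edgeR 4.0.16 (glmQLFit, glmQLFTest, filterByExpr, TMM) in R 4.3.3, with Benjamini-Hochberg adjustment over 17013 genes. A call took an absolute log2 fold change over 1 as well as an adjusted p under 0.05, while single genes and lists were counted at the adjusted p alone. DESeq2 1.42.0 and limma 3.58.1 were alternatives, as were other scalings and filters, a replicate block and each library left out. CPM are counts over TMM library sizes, and log2 CPM have a prior count of 2. Intervals cover 95%. TMM factors lay between 0.99 and 1.02, and the biological coefficient of variation was 25.1%. Tables, sequences and figures were handled with Python 3.11.15 (matplotlib 3.10.9, pandas 2.3.3, numpy 2.4.6, scipy 1.17.1). edgeR, DESeq2 and limma-voom were also run on simulated counts with known changes, and the outcome is not reported here.

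The members and lists were chosen with earlier results of these data known. Genes were named by rule: the members, the 3 genes of each list with the smallest p, and a fixed set of pathway genes. The genes nearest in profile numbered 5 for Mitf and 3 for each paralog. Most exceptions are named where they occur. Neu1, Tpp1, Ctsa, Mlana, Oca2, Oscar, Calcr, Ocstamp, Dcstamp, Frmd4b and Foxp1 were also named outside the rule. Krt18, Hoxa11 and Hand2 were named by rule without single values. The values of 1 gene are not reported here.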

Additional observations from a re-analysis of the deposited data

How the results depend on the processing

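The log2 fold change of Mitf lay between 1.42 and 1.62 over 12 alternatives. The adjusted p by which it was chosen, given as a description, lay between 9.73e-13 with DESeq2 and 0.225 without aged-SP replicate 1. The count of called genes, 25, became 632 with DESeq2, 203 without a filter and 2 with the replicate block, and lay between 1 (without aged-SP replicate 1) and 578 (without young-SP replicate 1) when a library was left out. The replicate numbers are shared by 2 pairs, whose deviations correlated at 0.152 and 0.136, and nothing in the labels ties them to a shared day or batch. Tfeb lay between 0.12 and 0.47 and Tfe3 between 0.10 and 0.18, with no adjusted p under 0.334 and 0.459. Tfec turned to 0.17 with limma-voom and lay between -0.34 and 0.71 when a library was left out. For the lists, called genes were 0, and with DESeq2 became 4 (Rag, folliculin and mTORC1), 3 (upstream), 2 (pigment), 2 (osteoclast), 3 (mast cell), 15 (CLEAR), 2 (other bHLH-Zip) and 1 (stroma). Without a filter they became 1 (mast cell), 2 (CLEAR) and 1 (other bHLH-Zip), and the share of all genes at that limit is not reported here. With 1 young-SP library left out they ranged from 0 to 1 for the Rag, pigment, osteoclast and stromal lists and 0 to 2 for the upstream, bHLH-Zip and epithelial lists. The range was 0 to 3 for mast cell genes and 0 to 6 for CLEAR. The upper ends came from leaving out young-SP replicate 1, where edgeR called 4.81% of all tested genes at that limit. Apart from the smaller number of samples, the cause of these changes was not tested. Where 1 aged-SP library was left, it was assumed to vary like the young-SP libraries. With 2 aged-SP libraries, the spread of that group rests on 1 difference, and the 14 to 44 reads of Tfec per library carry counting error beside the spread between libraries.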

Other observations

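Trpm1, a melanocyte channel gene that is a known target of MITF and was named after its values were seen, had 9 and 28 reads in the aged-SP libraries and 6, 3 and 2 reads in the young-SP libraries, and stayed under the filter on low counts.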
